A study of Mus musculus with 14 samples.

Results

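The interferon regulatory factors are a family of transcription factors that share a DNA-binding domain, and 7 of them are described here across 14 RNA-seq libraries of mouse acute myeloid leukaemia cells. The genes were chosen by name: Irf1, Irf2, Irf3, Irf4, Irf5, Irf8 and Irf9. All 7 had values in both deposited tables, among 13406 genes in the table of the doxycycline experiment and 14563 genes in the table of the Id2 experiment. Of these genes, 12695 symbols were in both tables.

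Every library came from primary leukaemia cells of C57/BL6 mice, and every group carried the same pair of retroviral vectors. One vector holds the fusion oncogene MLL-AF9 under Tet-Off control, linked to a dsRED reporter, so that doxycycline shuts the fusion off. The other holds the oncogene NRASG12D and the Tet-Off activator. Foetal liver cells carrying both were used to reconstitute lethally irradiated congenic animals, and leukaemia cells were later taken from the spleens of sick ones. Cells were then left untreated (n = 4) or kept in vitro with doxycycline for 4 days (n = 4), and the titles tie each doxycycline library to 1 untreated library by the labels TRIMA2-M1B1, TRIMA2-M3B1, TRIMA2-M4B1 and TRIMA1-M4B1 (replicates 1 to 4). Other cells received a control-GFP retrovirus (n = 3) or one that carries Id2, an inhibitor of E-protein transcription factors (Id2-GFP, n = 3), and GFP-positive cells were sorted 2 days later. No group without the Tet-Off fusion received doxycycline, so loss of MLL-AF9 and a response to the drug itself cannot be told apart. The labels do not say whether replicates came from separate mice, and the p-values therefore speak of the variation among these libraries, part of which may be technical.

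Each library of the doxycycline experiment held between 17922644 and 25959766 reads on tabled genes, and each of the Id2 experiment between 14051150 and 14948487. The first principal component of the doxycycline table, with 75.0% of the variance, separated the treated from the untreated libraries. In the Id2 table the first component held 57.8% of the variance, and on it control-GFP replicate 3 lay at 87.8, against -41.6 to 23.1 for the other 5 libraries. Levels are given as CPM, a measure of reads relative to library size that corrects for sequencing depth but not for gene length. In bulk RNA, fewer cells of a type and less RNA per cell cannot be told apart.

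As background, Irf3 and Irf5 are held inactive in the cytoplasm until kinases downstream of pattern-recognition receptors phosphorylate them, after which they enter the nucleus and switch on type I interferon and inflammatory cytokine genes. Interferon then binds its receptor, JAK kinases phosphorylate STAT proteins, and Irf9 joins these in the complex ISGF3, which binds the interferon-stimulated response element. Irf1 is itself induced through the gamma-activated site, and Irf2 competes with it for the same DNA elements. Irf4 and Irf8 bind DNA weakly alone and act with partners such as PU.1. Irf8 is required for monocyte and dendritic cell development, and mice without it develop a disease resembling chronic myeloid leukaemia. Irf4 is best known from plasma cells and activated lymphocytes.

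Irf1, Irf2 and Irf8 carry letters of these elements close to their start site, and the stretches are shown because all of these genes were higher after doxycycline. The windows come from RefSeq (GRCm38.p6), cover 300 bases from 250 before to 50 after each annotated start, and number 10 for the 7 genes. Both strands were searched for the gamma-activated site TTCNNNGAA, the interferon-stimulated response element core GAAANNGAAA and the ETS-IRF composite element GGAANNGAAA. Capitals mark the matches. The stretches lie on the plus strand at chr11:53769909-53769947 for Irf1, chr8:46739495-46739544 for Irf2 and chr8:120736172-120736228 for Irf8, and read 5′ to 3′:
Irf1: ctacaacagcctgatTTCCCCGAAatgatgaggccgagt
Irf2: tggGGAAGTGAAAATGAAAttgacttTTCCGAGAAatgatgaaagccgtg
Irf8: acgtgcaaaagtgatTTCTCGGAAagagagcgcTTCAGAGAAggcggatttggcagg
Irf1 had 1 gamma-activated site, which began 90 bases before the start. Irf2 had an ETS-IRF element at 247 bases and a response element core at 241 bases before the start, which share bases, and a gamma-activated site at 224 bases. Irf8 had 2 gamma-activated sites, at 171 and 153 bases. The windows of Irf3, Irf4, Irf5 and Irf9, and the other windows of Irf1, Irf8 and Irf9, held none of the 3 letter patterns. Over all 27025 genes with a window, 9.55% had a gamma-activated site, 3.99% the response element core and 3.16% the composite element. A match describes the letters of the window and is no binding site, and genes with no match (Irf4, Irf5 and Irf9) were higher after doxycycline too.

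After doxycycline, 6 of the 7 genes were higher and none was lower at an adjusted p under 0.05 (limma, Benjamini-Hochberg over all 13406 genes). Irf5 rose 4.00-fold and Irf4, from a very low level, 6.55-fold, whereas Irf1, Irf9, Irf2 and Irf8 rose 1.28-fold to 1.41-fold. Irf3 did not pass the test. Over all tabled genes, 65.1% were called in either direction, 31.3% higher and 33.8% lower, so a call alone was common, and at least 2-fold rises such as those of Irf4 and Irf5 were seen in 10.1% of genes. The replicate block, with 69.6% of all genes called, gave the same 6 calls. The median log2 change of the 7 genes was 0.48, against -0.03 over all genes.

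**Figure D1:**
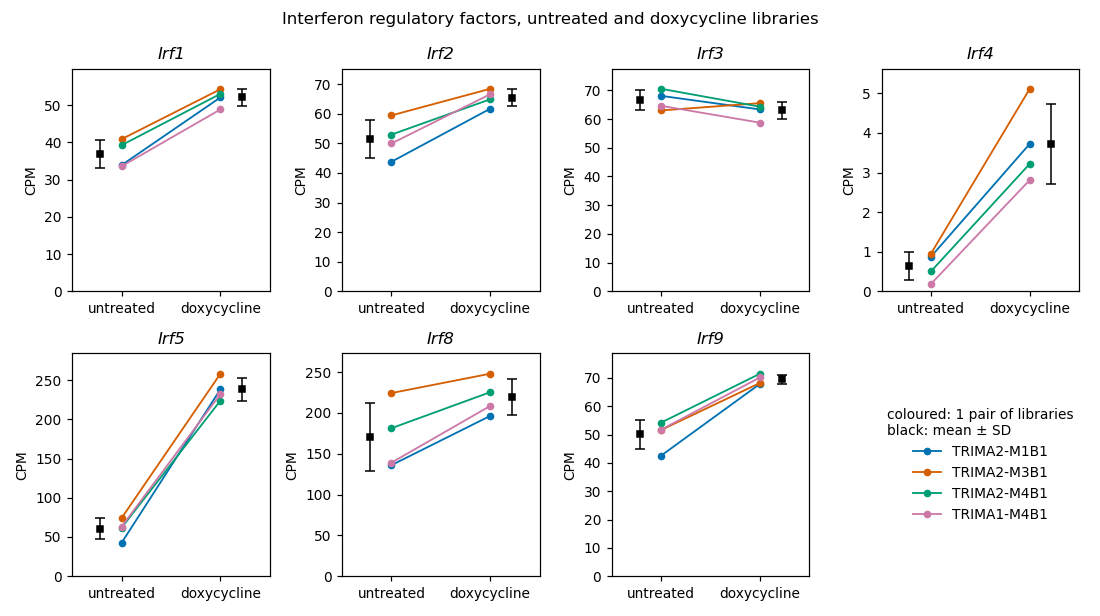
CPM of each of the 7 genes in the 4 untreated and 4 doxycycline libraries; each coloured line joins the libraries of 1 pair label, and black squares with bars are the group mean ± SD. Every pair rises for 6 genes, the groups of Irf3 and Irf8 overlap, and Irf5 goes from 42.8 to 74.4 CPM up to 224 to 258 CPM.

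Irf5 drives inflammatory cytokine genes in macrophages and dendritic cells downstream of Toll-like receptors. It lies at chr6:29526625-29541871 (plus strand; GRCm38, GENCODE M21, as for all gene positions here). Its level was 42.8, 74.4, 62.0 and 63.4 CPM in untreated replicates 1 to 4. With doxycycline it was 239, 258, 224 and 232 CPM. The groups were far apart; the lowest treated library had 224 CPM and the highest untreated one 74.4 CPM. The mean went from 60.6 ± 13.1 to 238 ± 14.6 CPM (SD, n = 4 each), a log2 change of 2.00 ± 0.14 (SE; 95% interval 1.68 to 2.32) with an adjusted p of 2.5e-06 in limma. A larger rise was seen for 483 genes, 3.60% of the table, and larger falls were not counted. Pair TRIMA2-M1B1, whose untreated library was the lowest, changed most (2.48), and the other 3 pairs changed by 1.80 to 1.87. Exons of Irf5 share 411 bases, 14.15% of its exon length, with Tnpo3 on the opposite strand, and whether the counting used strand is not given in the sources used here. Tnpo3 itself went from 117 to 107 CPM, a log2 change of -0.13 ± 0.04 (limma adjusted p = 0.021), opposite in direction to Irf5.

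Irf4, at chr13:30749226-30766976, was the least abundant of the 7 genes in every group. In untreated replicates 1 to 4 it had 21, 22, 10 and 4 reads, which is 0.875, 0.953, 0.504 and 0.186 CPM. The doxycycline libraries had 73, 104, 54 and 65 reads, or 3.72, 5.11, 3.22 and 2.81 CPM. The groups did not overlap, and every treated library exceeded every untreated one. The change was 2.71 ± 0.46 on the log2 scale (95% interval 1.68 to 3.74, limma adjusted p = 5.9e-04), and 1.58% of genes had a larger rise. Pair changes ran from 2.07 in TRIMA2-M1B1 to 3.76 in TRIMA1-M4B1, the pair whose untreated library held 4 reads. At so few reads the size depends on the offset added before taking logs: with log2(CPM + 2) the change was 1.11 in place of 2.71, still past the threshold.

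Irf8, the family member most closely tied to monocyte and dendritic cell fate, was abundant before treatment. Its locus is chr8:120736358-120756694. Untreated replicates 1 to 4 had 136, 224, 181 and 139 CPM. After doxycycline the values were 196, 248, 225 and 208 CPM. The groups overlapped, because untreated replicate 2 exceeded 2 of the treated libraries, yet each pair rose (0.53, 0.14, 0.31 and 0.58). The group means were 170 ± 41.6 and 219 ± 22.4 CPM, and the log2 change was 0.39 ± 0.15 (95% interval 0.05 to 0.74) with an adjusted p of 0.046 in limma. This call was lost more often than those of the other 5 genes, namely without untreated replicate 1, 3 or 4 (adjusted p = 0.118, 0.0565 and 0.116), without doxycycline replicate 2, 3 or 4 (adjusted p = 0.111, 0.0920 and 0.0640), and without pair 1, 3 or 4 (adjusted p = 0.107, 0.107 and 0.136), while the fit with the pair label as a block gave 0.00145.

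Irf1, at chr11:53770014-53778374, activates antigen-presentation and antiviral genes and restrains proliferation. It had 33.9, 40.8, 39.2 and 33.6 CPM untreated. Treated libraries had 52.0, 54.2, 53.0 and 48.8 CPM. All treated values lay above all untreated ones. The log2 change was 0.50 ± 0.07 (95% interval 0.33 to 0.67, limma adjusted p = 2.4e-04). Irf2, at chr8:46739732-46847458, its antagonist at shared elements, moved in the same direction. Its untreated values were 43.8, 59.5, 53.0 and 50.0 CPM. Its treated values were 61.7, 68.5, 64.9 and 66.6 CPM. These groups did not overlap either, although the gap between 59.5 and 61.7 CPM was small. The log2 change of Irf2 was 0.35 ± 0.09 (95% interval 0.16 to 0.54, limma adjusted p = 0.00509), and it was lost when library totals replaced the scaling in the deposited values (0.11, adjusted p = 0.305). The log2 difference in reads between Irf1 and Irf2, which is not corrected for length and is read only for its change, ran from -0.57 to -0.37 untreated and from -0.45 to -0.25 treated. The ranges overlap, but the difference was higher with doxycycline in each of the 4 pairs, by 0.15 on average.

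Irf9, the DNA-binding subunit of ISGF3, lies at chr14:55603571-55610030. Untreated libraries held 42.6, 51.6, 54.2 and 51.7 CPM. Doxycycline libraries held 67.9, 68.2, 71.5 and 70.2 CPM. The treated libraries were tightly grouped and all above the untreated ones. The change was 0.48 ± 0.07 (95% interval 0.31 to 0.64, limma adjusted p = 3.0e-04). Irf9 shares 123 exon bases with Rnf31 on the same strand, and Rnf31 also rose, from 42.4 to 53.7 CPM (0.34 ± 0.06, adjusted p = 7.4e-04).

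Irf3, the constitutively present sensor-activated factor, at chr7:44997648-45002848, was the exception. It had 68.1, 63.0, 70.6 and 64.6 CPM untreated. It had 63.4, 65.6, 64.3 and 58.8 CPM with doxycycline. The groups overlapped, and the pairs went in both directions (-0.10, 0.06, -0.13 and -0.14). Its log2 change of -0.08 ± 0.05 had a 95% interval from -0.20 to 0.04 and a limma adjusted p of 0.214, so a rise of the size seen for Irf1 or Irf9 lay outside the interval. Under other scalings Irf3 was called lower, by quantile normalization (-0.15, adjusted p = 0.041) and by library totals (-0.32, adjusted p = 0.0014). Library totals moved the median of all genes from -0.03 to -0.27, so that the Irf3 value was close to that median, and the count became 4 higher and 1 lower. Irf3 shares 88 exon bases, 2.56% of its exon length, with Bcl2l12 on the opposite strand. Bcl2l12 fell from 18.8 to 11.9 CPM (-0.66 ± 0.09, limma adjusted p = 1.3e-04), and its part in the Irf3 values was not tested.

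**Figure D2:**
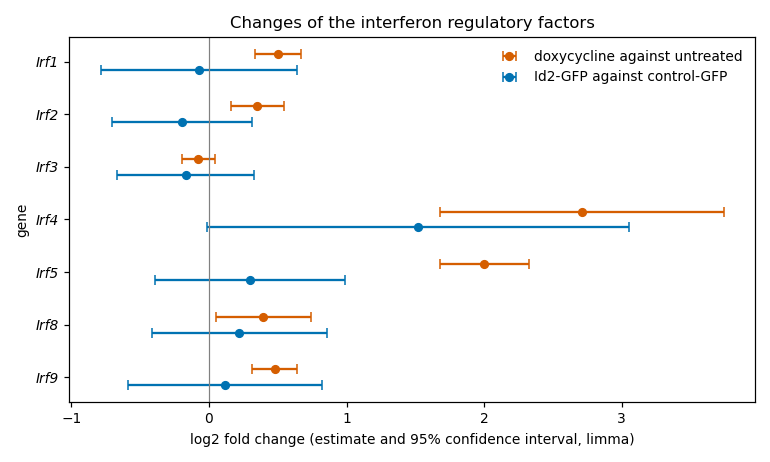
Log2 fold change of each gene with its 95% confidence interval from limma, for doxycycline against untreated (orange) and Id2-GFP against control-GFP (blue). The orange intervals of 6 genes lie above 0, that of Irf3 crosses 0, and all 7 blue intervals cross 0.

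Of the 7 genes, 5 (Irf1, Irf2, Irf4, Irf5 and Irf9) were higher in every treated library than in any untreated one, beside 28.9% of all genes (60% in either direction). In all 4 pairs 6 genes were higher, as did 35.8% of genes. The pairs were not alike in level. Replicate 2 (TRIMA2-M3B1) was the highest untreated library for 5 of the 7 genes and the highest treated library for 6. Replicate 1 (TRIMA2-M1B1) showed the largest rise for Irf1, Irf2, Irf5 and Irf9, and TRIMA1-M4B1 for Irf4 and Irf8. The libraries also lay closer together after treatment. The SD of the log2 values was smaller with doxycycline for 7 of 7 members, with a median of 0.18 untreated and 0.07 treated, while it was smaller for 46.3% of all genes (medians 0.11 and 0.12). The 7 genes share their libraries, so this is a description of 8 libraries and not 7 independent observations.

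To compare levels between the genes, CPM was divided by the length of the merged exons. Per kilobase, the untreated order was Irf8 (24.1 ± 5.90), Irf5 (20.9 ± 4.52), Irf3 (19.3 ± 0.986), Irf9 (9.29 ± 0.95), Irf1 (9.28 ± 0.932), Irf2 (6.97 ± 0.881) and Irf4 (0.128 ± 0.0724). The first 3 overlapped between neighbours, as did Irf9 and Irf1. With doxycycline the order became Irf5 (82.1 ± 5.03), Irf8 (31.1 ± 3.17), Irf3 (18.3 ± 0.864), Irf1 (13.1 ± 0.585), Irf9 (12.9 ± 0.314), Irf2 (8.85 ± 0.387) and Irf4 (0.758 ± 0.205), where Irf1 and Irf9 were the one pair of neighbours that overlapped. Irf5 therefore overlapped its neighbours untreated and lay above every other member after treatment. The summed level of the 7 genes per kilobase went from 90.0 ± 11.9 to 167 ± 8.52. Irf5 made up 23.0 ± 2.80% of that sum untreated (19.3% to 25.6% over libraries) and 49.1 ± 1.40% treated (47.1% to 50.3%). The share of Irf3 went from 21.8 ± 3.39% to 11.0 ± 0.445%, and that of Irf8 from 26.5 ± 3.18% to 18.6 ± 1.18%, so Irf8 took a smaller share although its own level was higher.

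**Figure D3:**
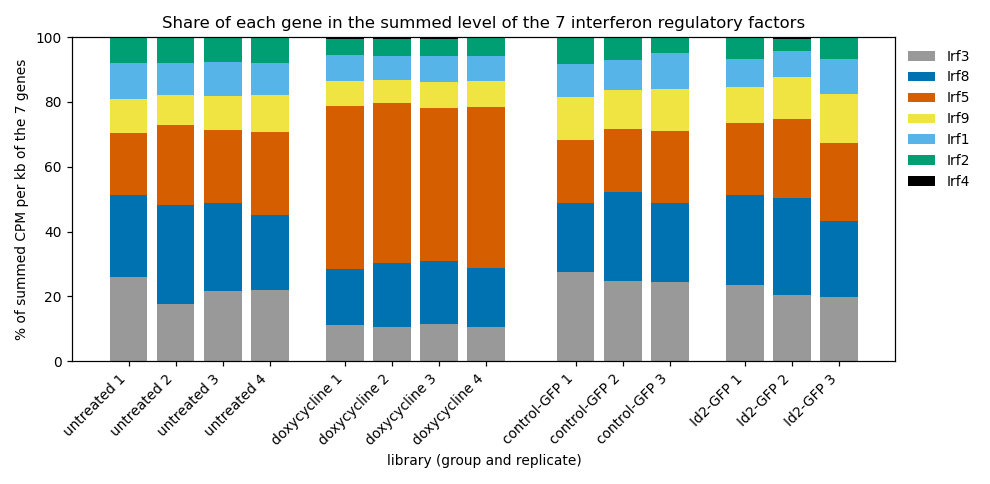
Share of each gene in the summed CPM per kilobase of the 7 genes, 1 bar per library, by group and replicate. Irf5 takes 47.1% to 50.3% of the sum in the 4 doxycycline libraries, against 19.3% to 25.6% in untreated, 19.4% to 22.2% in control-GFP and 22.3% to 24.4% in Id2-GFP libraries.

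With Id2, none of the 7 genes was called. Over all tabled genes, 2 of 14563 passed in limma, 0.0137%, and 357 had an unadjusted p under 0.05, 2.45%, among them none of the 7. No member had groups that did not overlap, beside 6.95% of all genes. With the replicate number as a block, 35 genes passed, 0.24%, and again none of the 7, while Irf4 had an unadjusted p under 0.05. The median log2 change of the 7 genes was 0.11, against -0.03 over all genes. The confidence intervals were wide, so changes of the size that doxycycline gave for Irf1, Irf4, Irf8 and Irf9 lay inside them. The interval of Irf5 ended at 0.99, below its doxycycline change of 2.00, and that of Irf2 at 0.31, just below its doxycycline change of 0.35, although the difference between the experiments was not tested because their tables were normalized apart.

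Irf4 had the largest estimate. Control-GFP replicates 1 to 3 held 6, 9 and 9 reads (0.395, 0.622 and 0.670 CPM). Id2-GFP replicates held 10, 53 and 26 reads (0.652, 3.69 and 1.80 CPM). Id2-GFP replicates 2 and 3 were above all controls, and replicate 1 fell inside their range. Irf4 was higher with Id2 in all 3 pairs (0.68, 2.50 and 1.38), as 12.8% of genes were. The log2 change was 1.52 ± 0.66 (95% interval -0.01 to 3.05) with an adjusted p of 0.998 in limma, or 0.426 with the replicate block, and so was not called. A larger rise was seen for 50 genes, 0.343% of the table, with larger falls not counted. Leaving out libraries moved the estimate between 0.94 and 2.17, and log2(CPM + 2) gave 0.59.

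Irf5 had 50.1, 52.1 and 95.5 CPM in control-GFP and 59.3, 90.9 and 85.9 CPM in Id2-GFP libraries. The groups overlapped because control-GFP replicate 3 was the highest of all 6 libraries. The log2 change was 0.30 ± 0.30 (95% interval -0.39 to 0.99). Irf8 had 135, 179 and 257 CPM in controls and 179, 271 and 203 CPM with Id2. It changed by 0.22 ± 0.27 (95% interval -0.42 to 0.86), with pairs 1 and 2 higher and pair 3 lower.

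The remaining members showed the same mixture of directions. Irf1 had 36.1, 33.9 and 64.5 CPM in controls and 31.2, 40.8 and 53.1 CPM with Id2, a log2 change of -0.07 ± 0.31 (95% interval -0.79 to 0.64). Irf2 had 52.8, 47.7 and 53.8 CPM in controls and 44.8, 34.4 and 58.2 CPM with Id2, a change of -0.20 ± 0.22 (95% interval -0.71 to 0.31). Neither gene moved one way in all 3 pairs. Irf3 had 83.6, 78.1 and 124 CPM in controls and 74.6, 89.9 and 84.7 CPM with Id2, a change of -0.17 ± 0.21 (95% interval -0.67 to 0.33). Irf9 had 63.6, 60.1 and 104 CPM in controls and 55.2, 89.6 and 102 CPM with Id2, a change of 0.11 ± 0.30 (95% interval -0.59 to 0.82). The adjusted p was 0.998 in limma for each of these genes.

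**Figure D4:**
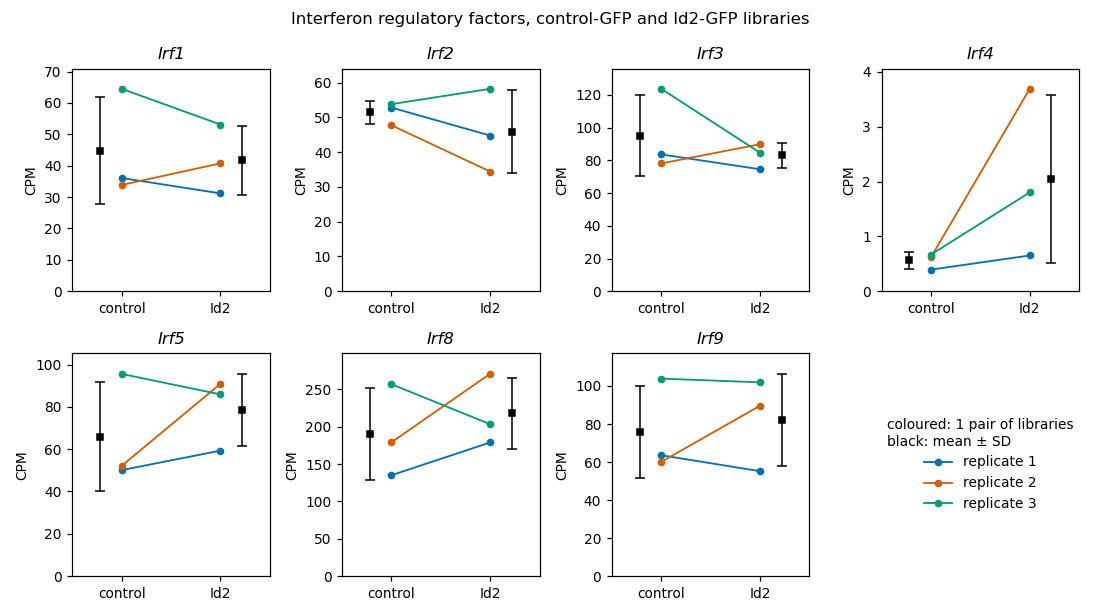
CPM of each of the 7 genes in the 3 control-GFP and 3 Id2-GFP libraries; each coloured line joins libraries with the same replicate number, and black squares with bars are the group mean ± SD. Control-GFP replicate 3 is the highest control for all 7 genes, the groups overlap for every gene, and Irf4 is higher with Id2 in all 3 pairs.

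Control-GFP replicate 3, the library that stood apart, was the highest control for all 7 genes. Without it Irf1 and Irf3 changed sign (0.22 and 0.03), Irf5 was 0.60, Irf8 0.46, Irf9 0.36, Irf2 -0.17 and Irf4 1.66, and still none was called. The order per kilobase in controls was Irf3 (27.6 ± 7.23), Irf8 (27.0 ± 8.74), Irf5 (22.7 ± 8.84), Irf9 (14.1 ± 4.52), Irf1 (11.3 ± 4.30), Irf2 (6.95 ± 0.442) and Irf4 (0.115 ± 0.03). With Id2 it was Irf8 (30.9 ± 6.76), Irf5 (27.1 ± 5.84), Irf3 (24.1 ± 2.26), Irf9 (15.3 ± 4.50), Irf1 (10.5 ± 2.77), Irf2 (6.19 ± 1.61) and Irf4 (0.418 ± 0.313). Irf8, Irf5 and Irf3 were the 3 most abundant members and Irf4 the least abundant in both groups. The share of Irf5 in the sum was 20.4 ± 1.60% in controls and 23.5 ± 1.13% with Id2, and these ranges did not overlap (19.4% to 22.2% and 22.3% to 24.4%), though by a narrow margin that was not tested. The share of Irf3 was lower with Id2, without overlap (24.3% to 27.4% in controls, 19.9% to 23.6% with Id2). That of Irf4 was higher, also without overlap (0.091% to 0.138% and 0.145% to 0.588%). The shares of Irf1, Irf2, Irf8 and Irf9 overlapped. All shares are parts of the same sum and so depend on each other.

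The genes around the family were read from fixed lists. Upstream, among 13 sensors, adaptors and kinases that lead to Irf3 and Irf5 activation, 7 were higher and 1 lower after doxycycline (median log2 change 0.33). Ikbke, a kinase of this pathway, rose from 101 ± 16.8 to 296 ± 3.69 CPM (1.57 ± 0.10, limma adjusted p = 1.3e-06), with the adaptor Myd88 (0.46 ± 0.06, adjusted p = 7.7e-05) and the kinase Tbk1 (0.40 ± 0.05, adjusted p = 1.5e-04) higher as well. Mb21d1, the DNA sensor also called cGAS, fell by 0.72 ± 0.06 in log2 units (limma adjusted p = 4.7e-06). The 8 called genes of these 13 were no larger a share than the 65.1% called over all genes.

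Of 9 interferon receptor, JAK kinase and STAT genes, 8 were higher and none lower (median 0.46), beside 31.3% of all genes higher and 33.8% lower. The receptor chains Ifngr2 (1.26 ± 0.05, limma adjusted p = 2.4e-07) and Ifnar1 (0.83 ± 0.04, adjusted p = 6.5e-07) changed most. Ifngr1, the ligand-binding chain for interferon gamma, was the member of this list that did not pass (0.08 ± 0.06, adjusted p = 0.228), and it is named after its value was seen. Stat2, a partner of Irf9 in ISGF3, rose by 0.46 ± 0.07 (adjusted p = 3.5e-04), beside 0.48 for Irf9. Among 7 feedback inhibitors, 4 were higher and 1 lower (median 0.33), a share called near the 65.1% of all genes. Socs3, an inhibitor of JAK kinases, went from 0.795 ± 0.248 to 5.90 ± 3.10 CPM (2.76 ± 0.38, adjusted p = 1.6e-04).

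Of 10 measured DNA-binding partners and cofactors, 4 were higher and 2 lower (median 0.39), which is no more than the 65.1% called over all genes. The list holds 14 genes, and Spi1, which encodes PU.1, Spib, Batf2 and Batf3 had no values analysed here. The AP-1 proteins Jun (1.92 ± 0.12, limma adjusted p = 1.4e-06) and Jund (0.83 ± 0.08, adjusted p = 2.2e-05), which pair with the Batf proteins at composite sites bound by Irf4 and Irf8, were higher. Irf2bpl, of the Irf2-binding protein family, rose by 1.28 ± 0.08 (adjusted p = 1.6e-06). Ikzf1, the lymphoid regulator Ikaros, fell by 0.68 ± 0.07 (adjusted p = 2.6e-05).

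Downstream, the 27 measured targets of ISGF3 had 21 higher and 1 lower, with a median of 0.81, which compares with 31.3% of all genes higher and a median of -0.03. Examples are Samd9l (1.07 ± 0.11, limma adjusted p = 1.9e-05), Oas2 (1.16 ± 0.13, adjusted p = 4.6e-05), Trim30a (0.81 ± 0.08, adjusted p = 2.7e-05) and Bst2 (0.61 ± 0.07, adjusted p = 2.8e-05). Their summed level was 584, 694, 717 and 727 CPM untreated and 1013, 1140, 1133 and 1005 CPM treated. No treated library overlapped an untreated one. For the 8 interferon genes on the list (Ifnb1, Ifng and members of the Ifna and Ifnl families) no values were analysed here.

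The 14 measured genes tied to Irf1 were split, with 6 higher, 4 lower and a median of 0.11, beside 31.3% of all genes higher and 33.8% lower. The peptide transporter subunit Tap2 (-1.08 ± 0.10, limma adjusted p = 1.4e-05) and the guanylate-binding protein Gbp3 (-1.33 ± 0.15, adjusted p = 3.9e-05) were lower. B2m, the light chain of MHC class I, rose by 0.72 ± 0.09 (adjusted p = 9.7e-05) and the cytokine Il15 by 1.13 ± 0.12 (adjusted p = 3.3e-05). The members of this list therefore moved in both directions although Irf1 itself was higher.

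Of 10 measured genes tied to Irf8 in myeloid cells, 8 were higher and 2 lower, with a median of 1.19. Over all genes 31.3% were higher and 33.8% lower, with a median of -0.03. The phagocyte oxidase subunit Cybb (2.35 ± 0.10, limma adjusted p = 3.3e-07), the protease Ctsc (1.44 ± 0.07, adjusted p = 4.5e-07) and the protease inhibitor Cst3 (0.95 ± 0.08, adjusted p = 9.1e-06) were higher. Bcl2l1, a survival gene that Irf8 is known to repress, was higher as well (1.53 ± 0.10, adjusted p = 1.8e-06). Bcl2, another survival gene of this list, was lower (-0.99 ± 0.14, adjusted p = 1.7e-04).

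**Figure D5:**
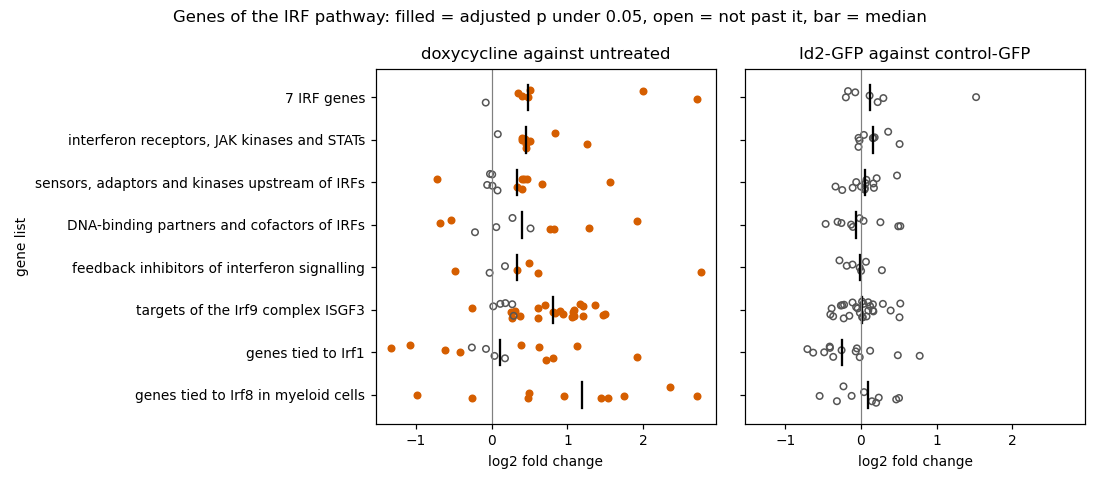
Log2 fold change of every measured gene of the 7 family members and of 7 pathway lists (rows), after doxycycline (left) and with Id2 (right); filled points passed an adjusted p under 0.05 in limma, open points did not, and black bars are medians. On the left the ISGF3 targets have a median of 0.81 and the genes tied to Irf1 one of 0.11, and on the right every point is open.

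With Id2, none of the genes on these lists was called in either direction, and list medians lay between -0.26 and 0.16. The summed ISGF3 targets were 750, 680 and 1491 CPM in controls and 657, 899 and 1297 CPM with Id2. Replicate 3 was the highest library in both groups, as it was for Irf1, Irf2 and Irf9.

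Markers of other cells and of maturation moved with these results. Of 8 measured monocyte and macrophage markers, 7 were higher after doxycycline, and their summed level was 671 to 903 CPM untreated and 2696 to 3105 CPM treated. Beside the counts of this and the next marker lists, 31.3% of all genes were higher and 33.8% lower after doxycycline. Of 8 neutrophil markers, 5 were higher and 2 lower, and the sum was 2130 to 3640 CPM untreated and 4494 to 9935 CPM treated. Their part in the changes of Irf5, Irf4, Irf8 and the lists above was not tested. Among lymphoid markers, Cd79a, Ebf1, Ms4a1 and Pax5 had no values analysed here. The 3 measured of 8 B cell markers summed to 12.0 to 25.9 CPM untreated and 15.3 to 32.0 CPM treated, with 2 higher. The higher ones were Cd22, from 0.899 ± 0.404 to 5.04 ± 0.984 CPM (limma adjusted p = 4.3e-05), and Blnk, from 1.76 ± 0.0978 to 5.66 ± 2.24 CPM (adjusted p = 1.9e-04), both low like Irf4, and their part in its change was not tested. Cd79b, which made up most of the untreated sum, was 18.4 ± 6.16 and 14.8 ± 6.05 CPM (adjusted p = 0.421, or 0.00529 with the replicate block). Sdc1, the measured 1 of 5 plasma cell markers, was 9.10 ± 4.29 and 8.16 ± 3.48 CPM. Of 7 T cell markers the 2 measured summed to 3.81 to 4.74 CPM untreated and 5.36 to 11.6 CPM treated, with 1 higher and 1 lower. Conventional dendritic cell markers, of which 3 of 7 were measured, summed to 20.0 to 67.6 CPM untreated and 77.7 to 120 CPM treated, with 2 higher and 1 lower. Cd209a went from 0.557 ± 0.157 to 17.1 ± 4.12 CPM and Itgax from 19.4 ± 7.40 to 76.8 ± 15.1 CPM. Flt3 went from 27.8 ± 17.6 to 2.21 ± 1.62 CPM, and the part of these genes in the change of Irf4 was not tested. The 3 measured of 5 plasmacytoid dendritic cell markers summed to 207 to 242 CPM untreated and 90.0 to 115 CPM treated, with 1 lower. In the Id2 experiment the 4 measured conventional dendritic cell markers summed to 324 CPM in control-GFP replicate 3 and 261 CPM in Id2-GFP replicate 3. The other 4 libraries had 37.1 to 82.8 CPM. Nearly all of these sums was Flt3 (96.1 ± 104 CPM in controls, 91.7 ± 106 CPM with Id2) and Itgax (52.5 ± 46.7 and 24.1 ± 16.7 CPM). The part of these markers in the high values of Irf1, Irf2 and Irf9 in replicate 3 was not tested.

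Genes with the most similar profile were ranked by Pearson correlation of log2 values over the 8 libraries of the doxycycline table, among genes with a mean of at least 10 CPM. The 8 libraries hold 2 conditions, so any gene that follows treatment scores high, and no p is given. Irf5 was closest to Fyb, Leprotl1 and Gng2 (r from 0.998 to 0.999), and 1038 genes, 12.3% of those ranked, reached 0.95. Irf9 was closest to Ralgps1, Rnf166 and Trim11 (r from 0.990 to 0.994), and Irf1 to Ccnl1, Psme2 and Igf2bp2 (r from 0.991 to 0.993). Irf2 was closest to Chst15, Zfp263 and Zufsp (r from 0.987 to 0.992). Irf8, with 10 genes at 0.95 or more, was closest to Lifr, Mndal and Crtc2 (r from 0.966 to 0.985), Irf4 to Zfp46, Jrkl and Casp6 (r from 0.972 to 0.975), and Irf3 to Cep250, Mitd1 and Hacl1 (r from 0.938 to 0.974). Over the 6 libraries of the Id2 table the same measure was high for some of these genes, such as Psme2 with Irf1 (0.87), Trim11 with Irf9 (0.87) and Gng2 with Irf5 (0.84). It was low or opposite in sign for others, such as Igf2bp2 with Irf1 (-0.27) and Cep250 with Irf3 (-0.88).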

How the data were processed

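RNA-seq was measured in 14 libraries. Libraries were made from total RNA with a TruSeq V2 kit, per the labels' protocols. The tools HTSeq, TopHat2, limma and CASAVA 1.8.2 and the build mm10 are named, without their roles, per the submitters' processing notes. The authors deposited log2 CPM values, 1 table per experiment; the values themselves are log2 of reads plus 0.5 over a scaled library size, and 100% came out as whole reads within 0.01 read. Scaling factors were 1.07 to 1.10 in untreated and 0.891 to 0.951 in doxycycline libraries. In the doxycycline table, 13 repeated entries were dropped.

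Each table was fitted whole with limma 3.58.1 in R 4.3.3 (eBayes with a variance trend, two-sided, Benjamini-Hochberg over all genes, threshold 0.05). The method was tested on simulated data, with the same added variability for all genes and no differences between pairs. That test does not measure how well changes would be found among the more variable Id2 libraries. Fold changes are on the log2 scale with the offset of 0.5 reads, which understates changes of low genes; CPM levels come from the recovered reads. Groups follow the labels' protocols, and comparisons stayed within a table. Deviations from the group means correlated between libraries with the same pair label or number (0.45 to 0.55 after doxycycline, 0.47 to 0.58 with Id2) and negatively between the others, so the numbers pair the samples.

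The members and lists were chosen with earlier results of these data known. All 7 members are named. Of each pathway list, up to 4 genes with the smallest doxycycline p are named, and for each member the 3 genes with the highest correlation, leaving out members, predicted, mitochondrial and ribosomal protein genes. Stat2, Ifngr1, Sdc1, Cd22, Blnk and Cd79b were named besides, after their values were seen, and a few list genes are not reported here by name. Alternatives covered scaling, offset, low-value filter, variance model, sample weights, block, threshold and left-out libraries.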

Additional observations from a re-analysis of the deposited data

How the results depend on the processing

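The count of members called, 6 after doxycycline and 0 with Id2, stayed within 1.5 times its value under every alternative, but the members behind it changed. It was 5 with library totals, without a variance trend, at an adjusted p under 0.01, with the 5 CPM filter, and without the libraries that cost the Irf8 call. With quantile normalization the 6 were 5 higher, without Irf8, and Irf3 lower. With library totals they were 4 higher, without Irf2 and Irf8, and Irf3 lower. After doxycycline Irf1, Irf5 and Irf9 were called in 22 of 22 settings and Irf4 in 21 of 21, although library totals lowered Irf1 from 0.50 to 0.26 and Irf9 from 0.48 to 0.24; a mean of at least 5 CPM removed Irf4 from the fit. Irf8 was called in 9 of 22 settings. Its call was lost also at an adjusted p under 0.01, and in limma with quantile normalization (0.27, adjusted p = 0.164). The same held with library totals (0.15, adjusted p = 0.424) and without a variance trend (adjusted p = 0.0716). Leaving out libraries moved Irf8 between 0.30 and 0.54 and Irf5 between 1.84 and 2.11. Genes called over the whole table came to 8733, of which 4198 higher, against 9614 and 2702 with library totals and 8909 and 3682 with quantile normalization. The replicate block left the members' calls as they were (6 higher after doxycycline, adjusted p of Irf8 = 0.00145, and none with Id2) and raised the genes called with Id2 from 2 to 35. With Id2 the sign of uncalled changes turned. With 1 library left out, Irf1 was -0.27 to 0.22, Irf3 -0.30 to 0.035, Irf8 -7e-04 to 0.46 and Irf9 -0.063 to 0.38. Without replicate 3 of both groups Irf1 was 0.028 and Irf3 0.019, and without replicate 2 of both groups Irf9 was -0.12. With sample weights, whose estimation did not fully converge, Irf1 was 0.14, and the cause was not tested. The 2 genes called over the whole table with Id2 became 3 without control-GFP replicate 3, 1 without Id2-GFP replicate 3, and 0 without Id2-GFP replicate 1 or both libraries of replicate 1 or 2. The Irf4 to Irf8 log2 difference shifted by 2.32 after doxycycline, and by 0.73 with log2(CPM + 2). Few reads limit Irf4.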
